A study of Mus musculus with 2 samples.

Results

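Dcdc2a-high ductal cells were the 1386 cells, of 4160 gated ductal cells and 46917 deposited barcodes, with the largest combined share of Dcdc2a, Cxcl12 and Cdh6 transcripts. Single cells of the pancreas of mouse embryos at day 14.5 had been profiled with the 10x Genomics assay, in which droplets tag RNA molecules near their 3' end, so that each molecule counts once as a unique molecular identifier (UMI). The study asked what loss of the secreted growth factor Fgf9 does to the developing organ, and had 1 library per genotype. Control tissue was a pool of 8 pancreata of 3 litters, Fgf9 +/+ and +/- together, so some of these animals carried 1 disrupted allele. Null tissue was a pool of 3 pancreata, also of 3 litters, that were Fgf9 -/-, with a LacZ cassette in both copies of the gene. All mice were on a C57BL/6J background. All tissue passed through TrypLE dissociation and a sort for live, DAPI-negative cells of a size chosen against doublets. The members were 552 Control cells and 834 Null cells, and no barcode occurred among the members of both libraries, although 180 of all barcodes did. With 1 library per genotype there is no test between genotypes. Every interval below is a 95% interval for counting error alone and leaves out the spread among embryos and preparations. Intervals of CPM and of ratios, which come from summed UMIs, also leave out the spread among cells.

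At this stage the pancreatic epithelium is a branching tree. Its tips give rise to enzyme-secreting acinar cells, and its central trunk holds progenitors that either leave the epithelium as Neurog3-expressing endocrine cells or remain as duct cells, under the control of Notch signalling and of the transcription factors Sox9 and Onecut1. Duct cells carry a primary cilium, a sensory antenna whose loss causes cystic ducts, and line the channel that later carries acinar secretions. Dcdc2a encodes a doublecortin-domain protein that binds microtubules and is found in the cilium. Human DCDC2 is mutated in an inherited sclerosing disease of the bile ducts. Cxcl12 encodes a chemokine, Cdh6 a cell adhesion cadherin of epithelia, and Spp1 the secreted glycoprotein osteopontin, made by pancreatic and biliary ducts.

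The gate kept barcodes of at least 5000 UMIs with under 10% mitochondrial UMIs, Spp1 of at least 3 per 10000 UMIs and at least 1 UMI of the epithelial genes Epcam or Cdh1. It removed cells with more than 1 UMI of the acinar factors Rbpjl and Ptf1a or of Neurog3, with hormone transcripts (Gcg, Ins1, Ins2) of 10 per 10000 or more, and with fibrillar collagen transcripts (Col1a1, Col1a2, Col3a1) of 5 per 10000 or more. This left 2581 Control and 1579 Null cells, which were pooled and ranked by the summed UMIs of Dcdc2a, Cxcl12 and Cdh6 over the total. The ranking was cut into 3 groups of nearly equal size. The high group became the Dcdc2a-high cells, and the middle and low groups held 1388 and 1386 cells. The ranking was a continuum and the members are a range of it, not a separate type. The last cell inside had 5.25146 and the first cell outside 5.25083 of these transcripts per 10000 UMIs, and 340 cells lay within 10% of the cut, 146 inside and 194 outside. Near the cut the makeup of the score varied. One Null cell just inside had 0 UMIs of Dcdc2a, 13 of Cxcl12 and 2 of Cdh6, while a Control cell just outside had 3, 2 and 8.

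Of the 15 ductal and trunk markers, 4 (Spp1 and the ranking genes) chose the members, so the label was read from the other 11. All 11 were detected in the members of both libraries, among them Sox9 at 1022 and 1016 CPM (UMIs scaled to a common total of the summed cells) in Control and Null, and Krt19 at 130 and 207 CPM. Summed over the 11 markers, the median member had 47.5 transcripts per 10000 UMIs in Control and 57.4 in Null, against 15.7 and 15.4 in acinar cells of the same libraries (at least 2 UMIs of Rbpjl and Ptf1a) and 3.78 and 2.72 in mesenchymal cells (fibrillar collagen transcripts of 5 per 10000 or more and no Epcam or Cdh1 UMI). The gate itself limited acinar, hormone, endocrine progenitor and mesenchymal genes, so their low levels in the members are in part fixed by it. Acinar markers had medians of 16.4 and 10.1, hormone genes 4.001 and 2.178, and endocrine progenitor markers 0.675 and 0.481 per 10000. Mesenchymal markers had medians of 0.486 and 0.269, endothelial markers 0 and 0.244, and liver markers 1.49 and 0.485. Genes shared with the extrahepatic bile duct, such as Krt7 and Fxyd2, had 3.103 and 3.857. Mesothelial, immune, neural and glial, erythroid and gut markers had medians of 0 in both libraries, with the gut factor Cdx1 and the gut gene Fabp1 at 0 UMIs throughout. Acinar enzyme RNA also floats free in such suspensions. Its profile was taken from barcodes of under 1000 UMIs, and whether these hold free RNA alone was not tested. If they do, free RNA would make up at most 14.5% of Control and 5.31% of Null member UMIs. These limits take all acinar enzyme RNA in the members as free. The part of free RNA in differences of acinar and hormone genes was not tested.

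Fgf9 itself, the targeted gene, had 57 UMIs in Control members (5.98 CPM, 4.53 to 7.75) and 4 in Null members (0.183 CPM, 0.0499 to 0.469). The Null level was thus lower by 5.03 on the log2 scale (log2 ratio of -5.03). In mesenchymal cells of the same libraries Fgf9 had 33.1 and 15.8 CPM. Where in the gene the cassette lies is not stated in the labels, so a 3' tag is only a partial check. Xist, expressed from the inactive X chromosome of females, stood at 558 CPM in Control members and 1.098 CPM in Null members. Of the gated cells, 1520 of 1579 in Null carried Y-linked UMIs and at most 1 Xist UMI, against 1129 of 2581 in Control. Null cells were thus almost all of 1 sex and Control cells of both, and genotype and this sex difference cannot be told apart except where values within Y-linked cells are given.

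The genes of the ranking lie on 3 chromosomes of GRCm38 (mm10). Dcdc2a (ENSMUSG00000035910) spans chr13:25056004-25210706 on the plus strand, Cxcl12 (ENSMUSG00000061353) chr6:117168535-117181367 on the plus strand, and Cdh6 (ENSMUSG00000039385) chr15:13028701-13173675 on the minus strand. The 250 bases before their annotated starts are shown because these genes chose the members, and come from RefSeq (GRCm38.p6). The windows are chr13:25055754-25056003 on the plus strand for Dcdc2a, chr6:117168285-117168534 on the plus strand for Cxcl12 and chr15:13173676-13173925 on the minus strand for Cdh6. Each is written 5′ to 3′ along the gene, with CG dinucleotides, the sites of DNA methylation in mammals, in capitals.
Dcdc2a: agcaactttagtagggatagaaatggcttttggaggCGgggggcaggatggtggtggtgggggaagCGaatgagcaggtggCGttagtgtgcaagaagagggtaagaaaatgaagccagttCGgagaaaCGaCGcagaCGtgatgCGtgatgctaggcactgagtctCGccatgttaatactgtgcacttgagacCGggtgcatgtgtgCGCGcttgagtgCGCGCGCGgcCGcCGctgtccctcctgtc
Cxcl12: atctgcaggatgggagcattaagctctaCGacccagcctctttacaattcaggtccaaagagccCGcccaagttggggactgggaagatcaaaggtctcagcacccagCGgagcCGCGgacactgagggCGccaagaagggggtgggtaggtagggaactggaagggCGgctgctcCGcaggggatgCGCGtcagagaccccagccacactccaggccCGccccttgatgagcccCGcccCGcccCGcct
Cdh6: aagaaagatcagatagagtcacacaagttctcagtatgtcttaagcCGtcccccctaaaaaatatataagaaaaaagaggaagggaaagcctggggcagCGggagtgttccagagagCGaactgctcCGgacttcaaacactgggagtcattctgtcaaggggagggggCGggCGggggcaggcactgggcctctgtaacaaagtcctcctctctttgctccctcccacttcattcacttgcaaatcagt
The Dcdc2a window held 18 CG dinucleotides, that of Cxcl12 14 and that of Cdh6 6. Among all 32851 RefSeq windows of this length the median was 6, with quartiles of 2 and 16, and 92.1% held at least 1. Of the 3 ranking genes and the 15 named genes that stood above the low group (below), 13 had a window, with a median of 12. They ranged from 2 in Slc2a2 and Eprn to 19 in Fgfr3. These counts describe the letters of the windows and say nothing on methylation.

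The 3 ranking genes contributed unequally, and differently in the libraries. Dcdc2a stood at 375 CPM in Control and 507 CPM in Null members, against 54.9 and 74.6 CPM in the low groups. Cxcl12 stood at 338 and 291 CPM in members, against 29.3 and 30.1 CPM in the low groups. Cdh6 stood at 97.2 and 170 CPM in members, against 18.0 and 30.1 CPM. Dcdc2a thus made up 46.3% of the ranking UMIs in Control members and 52.4% in Null members, and Cxcl12 41.7% and 30.1%. All 3 genes were detected together in 64.7% of Control and 87.8% of Null members, and Cdh6 had no UMI in 173 Control members (31.3%) and 51 Null members (6.12%). Null members had more UMIs, with a median of 25502 against 17072. After each cell was thinned to 5000 UMIs, which no member fell below, Dcdc2a had a UMI in 82.1% of Control members (78.6 to 85.2; 97.6% unthinned) and 87.5% of Null members (85.1 to 89.7; 99.3% unthinned). In 1500 thinned acinar cells of each library, which should largely lack it, the shares were 6.67% and 3.53%. Cxcl12 is not specific to ducts. Mesenchymal cells of the same libraries had 190 CPM in Control and 336 CPM in Null.

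Within the gated cells the genes of the rule varied together only weakly. Over 2581 Control and 1579 Null cells thinned to a common depth, Spearman's rho between Dcdc2a and Cxcl12 was 0.18 and 0.23, between Dcdc2a and Cdh6 0.14 and 0.21, and between Cxcl12 and Cdh6 0.06 and 0.07. These are descriptions over cells that share a library and have sparse counts. Apart from the genes of the rule, the genes most like the score in both libraries, of 5740 considered, were Malat1 (rho 0.34 in Control and 0.38 in Null), a nuclear long noncoding RNA, Tpm1 (0.30 and 0.45), a tropomyosin of actin filaments, the imprinted zinc finger gene Peg3 (0.30 and 0.36), and Sparc (0.28 and 0.28) and Tinagl1 (0.28 and 0.27), both matrix proteins. Bicc1, an RNA-binding protein whose loss gives cystic kidneys, followed with 0.28 and 0.26.

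**Figure D1:**
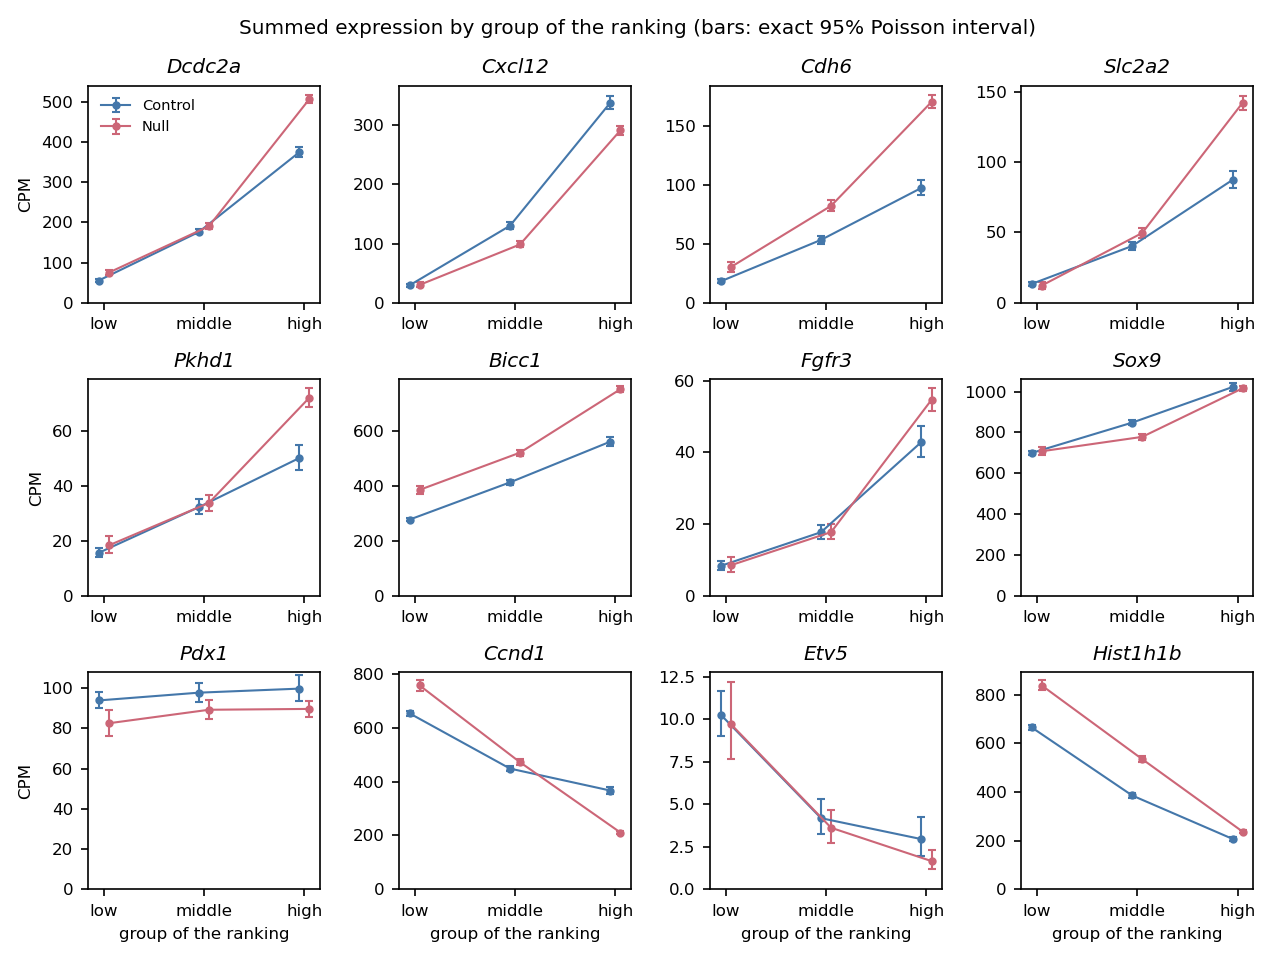
Summed expression in CPM (vertical axis, from 0) of 12 genes in the low, middle and high group of the ranking (horizontal axis), for Control (blue) and Null (red) cells, with exact 95% Poisson intervals. The upper row holds the 3 ranking genes and Slc2a2, and Ccnd1, Etv5 and Hist1h1b descend from the low to the high group in both libraries while Pdx1 stays near level.

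Dcdc2a-high cells formed a larger part of the gated ductal cells in the Null library. They were 552 of 2581 Control cells (21.4%, exact Clopper-Pearson interval 19.8 to 23.0) and 834 of 1579 Null cells (52.8%, 50.3 to 55.3). The low group held 44.5% of Control and 15.1% of Null gated cells. The rule used the ranking genes in the pooled libraries, so the shares describe where the cut fell in each. The median score of members was 7.31 per 10000 UMIs in Control and 8.95 in Null, and 247 of the 262 cells with a score of 0 were Control cells. The share was lower in the deeper cells of each library, and the Null share was above the Control share at each depth. Among cells of 5000 to under 10000 UMIs the shares were 29.5% in Control and 71.1% in Null. They were 25.5% and 68.0% from 10000 to under 20000 UMIs, 17.7% and 58.9% from 20000 to under 30000, and 7.23% and 40.7% at 30000 or more. When cells were ranked after thinning to 5000 UMIs, the shares were 26.1% and 45.1%.

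**Figure D2:**
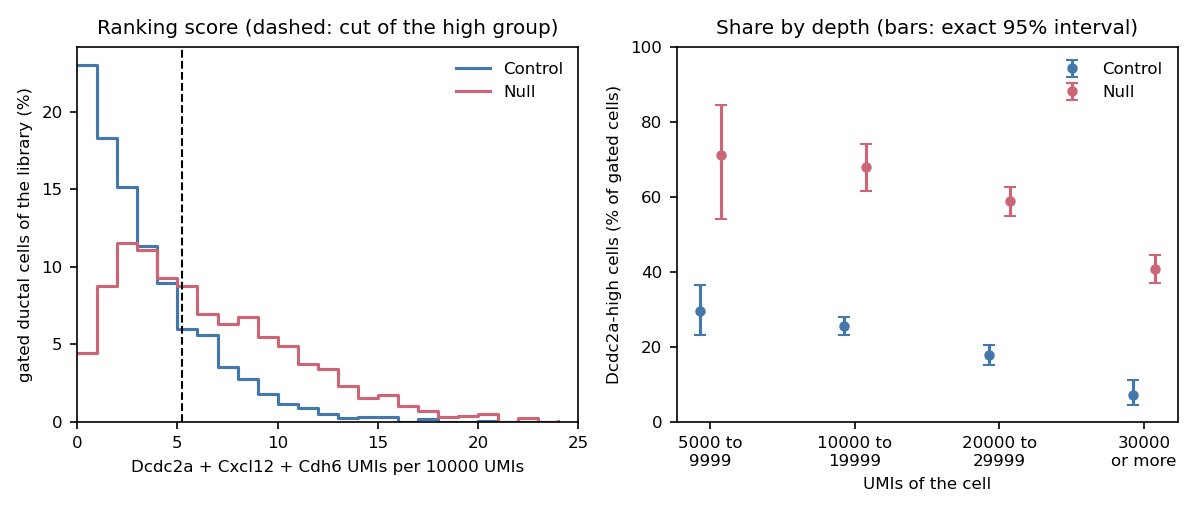
Left, the percentage of each library's gated ductal cells (vertical axis) at each ranking score (horizontal axis, transcripts of the 3 ranking genes per 10000 UMIs, in bins of 1), with the cut as a dashed line at 5.25146. Right, the percentage of gated cells that are Dcdc2a-high by UMIs of the cell, with exact 95% intervals, where the Null share lies above the Control share in each of the 4 depth ranges, from 71.1% against 29.5% to 40.7% against 7.23%.

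The share differed between libraries also within sex and within dividing cells. Among cells with Y-linked UMIs and at most 1 Xist UMI it was 17.4% in Control (15.2 to 19.7) and 52.5% in Null (49.95 to 55.04). Control cells with Xist were members in 25.4% (22.8 to 28.1), while only 1 gated Null cell was of that kind. Among thinned cells with a UMI of the division genes Mki67 or Top2a the share was 18.6% in Control and 44.5% in Null, and among cells with neither it was 25.6% and 62.7%. Scrublet called 6 Control members and 4 Null members as doublets (1.09% and 0.480%), and without called doublets the shares were 21.7% and 53.1%.

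Compared with the low group of the same library, the members stood furthest above it for Slc2a2, Cryab and Cdh11 among the named genes. The members were chosen by genes of the same cells, so what follows describes the contrast and supports nothing. Of 13437 genes measured in both libraries, 2.73% were at least 2-fold higher in both (3.95% of 14032 in Control and 8.62% of 13759 in Null), and 1.12% were at least 2-fold lower in both (3.98% in Control and 2.14% in Null). The median over all genes was 0.12 in Control and 0.18 in Null on the log2 scale. Slc2a2, the glucose transporter GLUT2, stood at 87.4 CPM in Control members against 13.3 CPM in the low group, and at 142 against 12.2 CPM in Null, log2 ratios of 2.71 and 3.54. Cryab, a small heat shock protein, had ratios of 2.49 and 3.53, and Cdh11, another cadherin, 2.54 and 3.03. Fgfr3, a receptor for fibroblast growth factors, stood at 42.9 against 8.36 CPM in Control and 54.7 against 8.53 CPM in Null, ratios of 2.36 and 2.68. The fatty acid binding protein gene Fabp3 had 2.25 and 2.43, and the sugar transporter gene Slc5a9 2.17 and 2.37. Shank2, a scaffold protein, had 1.88 and 1.92, Shroom3, which constricts the apical side of epithelial cells, 1.77 and 1.97, and Spink4, a secreted peptidase inhibitor, 1.76 and 1.73. Pkhd1, the fibrocystin gene of polycystic kidney and liver disease, stood at 50.3 against 15.7 CPM in Control and 72.3 against 18.4 CPM in Null (1.68 and 1.98). The creatine kinase gene Ckb had 1.67 and 1.91. The remaining named genes, Gm32585, Gulp1, Prkcb and Eprn, lay between 1.63 and 2.39 in both libraries.

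Among the named genes, those that stood lowest were replication-dependent histones and a few enzymes. Genes that were not named could stand lower, such as Etv4 (below). Of the 12 named, 7 were histone genes, from Hist1h3f at -1.80 in Control and -1.79 in Null to Hist1h3e at -1.18 and -1.34. Hist1h1b, a linker histone, stood at 207 against 665 CPM in Control and 236 against 838 CPM in Null. Fmo1, a flavin monooxygenase, had ratios of -1.88 and -2.83, and Fmo4 -1.24 and -2.03. Reg1, a secreted protein of acinar cells, had -1.54 and -1.66, Gulo, which makes vitamin C in mice, -1.46 and -2.36, and the heparan sulfate sulfotransferase gene Hs6st2 -1.38 and -1.20.

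**Figure D3:**
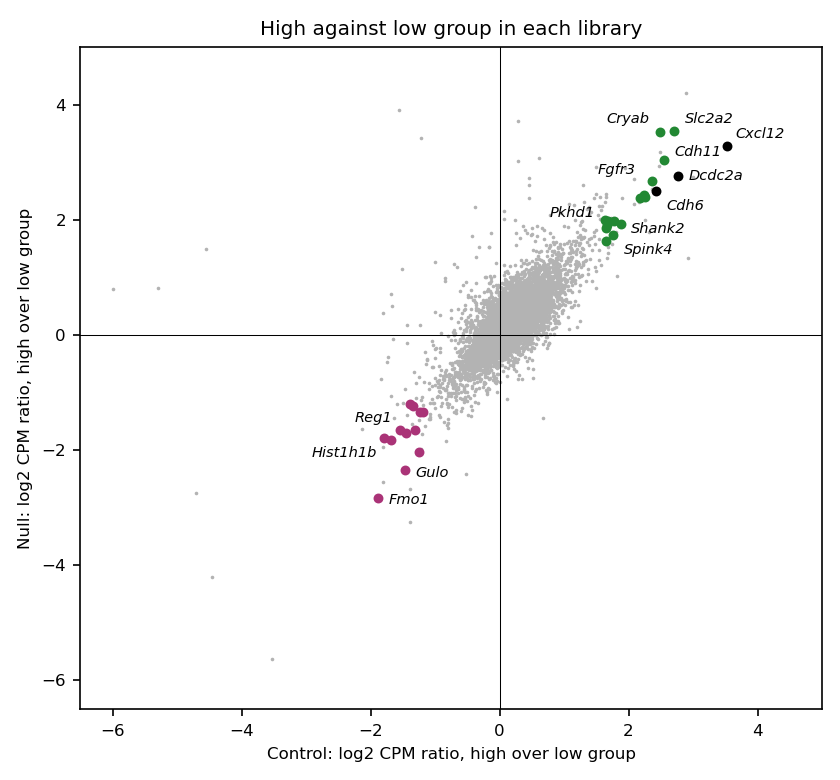
Each point is a gene with at least 100 UMIs in the compared cells of each library, at its log2 CPM ratio of the high over the low group in Control (horizontal axis) and Null (vertical axis). Black points are ranking genes, green the 15 named higher and purple the 12 named lower genes, and Slc2a2 lies at 2.71 and 3.54 and Fmo1 at -1.88 and -2.83.

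By function, duct structure genes stood higher in the members. Each count is beside the share of all measured genes higher than in the low group, 64.2% in Control and 67.9% in Null, or lower, 35.8% and 32.1%. Of 30 genes of the primary cilium and of cystic disease, 30 were higher in Control (median 0.50) and 26 in Null (0.62). They included Bicc1 at 1.02 and 0.96, the transcription factor gene Glis3 at 1.26 and 1.67, Glis2 at 1.05 and 1.33, and Pkd2, a cation channel of the cilium, at 0.66 and 0.57. Of 21 basement membrane and integrin genes, 17 were higher in Control (median 0.47) and 18 in Null (0.81), among them the laminin chains Lamb1 (1.04 and 1.06) and Lama5 (0.96 and 1.35). Among keratins and duct surface genes, 20 of 23 were higher in Control (0.37) and 20 of 24 in Null (0.51), with Krt19 at 0.89 and 1.21 and Krt7 at 0.72 and 1.11. Polarity and tight junction genes had medians of 0.41 and 0.47, with 23 of 25 and 20 of 25 higher.

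Trunk transcription factors differed from gene to gene. Sox9 had ratios of 0.55 and 0.52 and Onecut1 0.54 and 0.54, whereas Pdx1, which marks all early pancreatic epithelium, had 0.09 and 0.12. Of the list, 21 of 29 measured genes were higher in Control (median 0.25) and 20 of 30 in Null (0.42). The chloride channel gene Cftr rests on few UMIs, 13 in Control and 71 in Null members, and had ratios of 2.01 (0.63 to 3.49) and 2.04 (0.85 to 3.54). Fxyd2, a regulator of the sodium pump, had 1.31 and 1.39.

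FGF receptors and FGF response genes stood on opposite sides. The receptor genes Fgfr3, above, and Fgfr2 (0.83 and 0.92) were higher in members, and 13 of 14 receptors, co-receptors and ligands were higher in Control and 11 of 14 in Null. Of the feedback and target genes of FGF/ERK signalling, 14 of 17 were lower in Control (median -0.45) and 15 of 16 in Null (-0.62). Etv4 and Etv5, transcription factors induced by ERK, had ratios of -2.71 and -1.80 in Control and of -3.77 and -2.56 in Null. Ccnd1, the cyclin that drives entry into the cell cycle, stood at 366, 448 and 654 CPM in the high, middle and low group of Control and at 210, 472 and 757 CPM in Null.

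Mitosis genes stood lower in the members, while genes of DNA replication did so only in part. Of 36 G2/M genes, 35 were lower in each library (medians -0.39 and -0.34), for example Ccnb2 at -0.86 and -0.78 and Ube2c at -0.85 and -0.65. The exception was Mki67, at 0.20 and 0.12. Of 35 S phase genes, 22 were higher in Control (median 0.06) and 8 in Null (-0.14). The cell cycle inhibitor gene Cdkn1a had 1.11 and 1.51, and the cyclin gene Ccnd2 0.95 and 0.95. After thinning, 52.7% of Control members (48.5 to 56.9) and 45.7% of Null members (42.3 to 49.1) had a UMI of Mki67 or Top2a, against 65.3% and 66.0% of cells of the low group. Without thinning the members' shares were 77.9% and 69.1%. Markers of other cell types differed between the groups too. Immune markers stood lower in members, 8 of 8 in both libraries, with a summed level of 8.72 CPM in Control and 7.97 CPM in Null against 76.0 and 70.0 CPM in the low groups, while the median cell had 0 in each. Endothelial markers stood lower as well, 7 of 7 measured in Control (median -2.05) and 6 of 6 in Null (-2.77), with summed levels of 39.0 and 30.5 CPM in members against 57.3 and 53.1 CPM in the low groups. The part of such cells in the contrast was not tested. Endocrine commitment genes stood lower in Control members (17 of 28, median -0.61) but not in Null (10 of 27 lower, 0.18). The difference between the libraries was not tested.

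Between genotypes, most genes of the members differed by less than 2-fold. Of 13897 genes measured in Dcdc2a-high cells, 2.81% (391) were at least 2-fold higher and 1.43% (199) at least 2-fold lower in Null, and the median ratio was 0.06 on the log2 scale. Null members scored higher than Control members, so genes that track the score are also set against each other at unequal scores. Values for lower-scoring members, those under the median score of all members, are therefore added where they move the ratio of a named gene, or the median of a named list, by over 1.5 times. Some that moved less are given too, such as those of Tgfb2 and of YAP/TEAD targets. This comparison was chosen after seeing the data.

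Onecut2, a transcription factor gene, headed the named higher genes, with 5 UMIs in Control members and 1551 in Null members (0.525 and 71.0 CPM). The Null UMIs lay in few cells. Of 834 Null members 77 (9.23%) had an Onecut2 UMI and 52 had at least 3, against 5 of 552 Control members (0.906%). These 77 cells also stood apart in Nr2f2, an orphan nuclear receptor gene (208 CPM against 5.04 CPM in the other 757), and in Vcan, a matrix proteoglycan gene (101 against 8.00 CPM). Over all members Nr2f2 was higher in Null by a log2 ratio of 1.77, and without cells with an Onecut2 UMI it was lower, at -0.57. After subtraction of estimated free RNA it was 6.08. Control members had only 72 Nr2f2 UMIs (7.56 CPM) before subtraction. The subtracted ratio depends on how few remain and should not be read as the size of a difference.

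Among the other genes higher in Null, several encode cytoskeletal or secreted proteins. Tagln, an actin-binding protein, stood at 21.8 CPM in Control and 67.7 CPM in Null members, a log2 ratio of 1.63 (1.42 to 1.85), with 0.29 in the middle and 0.10 in the low group. Tgfb2, a secreted TGF-beta ligand, stood at 21.2 and 62.5 CPM, a ratio of 1.56 (1.35 to 1.78), with 0.93 and 0.14. Ankrd1, a transcriptional target of YAP, stood at 17.1 and 44.0 CPM (1.36, 1.12 to 1.61). The signalling ligand gene Wnt4 stood at 9.03 and 22.8 CPM (1.34, 1.00 to 1.68), and its ratio in the low group was -0.005. Ahnak, a large scaffold protein, had 1.19, and Tnfrsf12a, the receptor for the cytokine TWEAK, 1.105. In the 77 Null members with an Onecut2 UMI, Ankrd1 stood at 114 CPM, against 36.1 CPM in the other 757. Wnt4 stood at 38.6 and 21.0 CPM in the same cells. Tagln, Tgfb2 and Ahnak differed less between them, and Tnfrsf12a was lower in those with Onecut2 (171 against 198 CPM). Hist1h3f had 1.25, with 1.19 and 1.23 in the middle and low groups, but 0.62 with groups cut within each library and 0.77 with ranking after thinning. Ankrd1 had 2.11 with groups cut within each library. Among lower-scoring members the ratios were 0.97 for Tagln, 0.53 for Ankrd1, 0.77 for Ahnak and 1.21 for Tgfb2. The Y-linked genes Ddx3y, Eif2s3y and Kdm5d were named too, at 1.25 to 1.30, and within cells with Y-linked UMIs they stood at 0.10, -0.07 and -0.03. Within those cells Tagln had 1.62, Tgfb2 1.76, Wnt4 1.13 and Ankrd1 0.89.

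Genes lower in Null included the ribosomal protein gene Rpl29 (949 CPM in Control and 539 CPM in Null members, -0.82) and the noncoding RNA Snhg9 (27.4 and 13.6 CPM, -1.01). Both were as low in the other groups, Rpl29 at -0.88 and -0.97 and Snhg9 at -1.06 and -1.01. For others the ratio was nearer to 0, or above it, in the middle and low groups. Ccnd1 stood at 366 and 210 CPM (-0.80, -0.86 to -0.74), and its ratio was 0.07 in the middle and 0.21 in the low group. Aldh1b1, a mitochondrial aldehyde dehydrogenase of pancreatic progenitors, stood at 133 and 72.6 CPM (-0.87), with -0.26 and -0.14 in the other groups. Cldn10, a tight junction claudin, stood at 196 and 121 CPM (-0.70), with -0.19 and -0.05. Cda, Bmp7, Cited1 and Rap1gap2 had ratios between -0.69 and -0.76, and Bmp7, a secreted BMP ligand, stood at 43.5 and 25.7 CPM. Among lower-scoring members the ratios were -0.45 for Ccnd1, -0.51 for Aldh1b1 and -0.46 for Cldn10, Cda and Cited1. With groups cut within each library they were -1.41 for Aldh1b1, -1.16 for Cda and -1.08 for Cited1. That the ratios differ between groups was not tested. Xist and Tsix were lower by 8.99 and 5.77 (log2 ratios of -8.99 and -5.77), and the gene model Gm42418 by 0.69 (-0.69). For Gm42418 the ratio was 0.06 after subtraction of estimated free RNA.

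**Figure D4:**
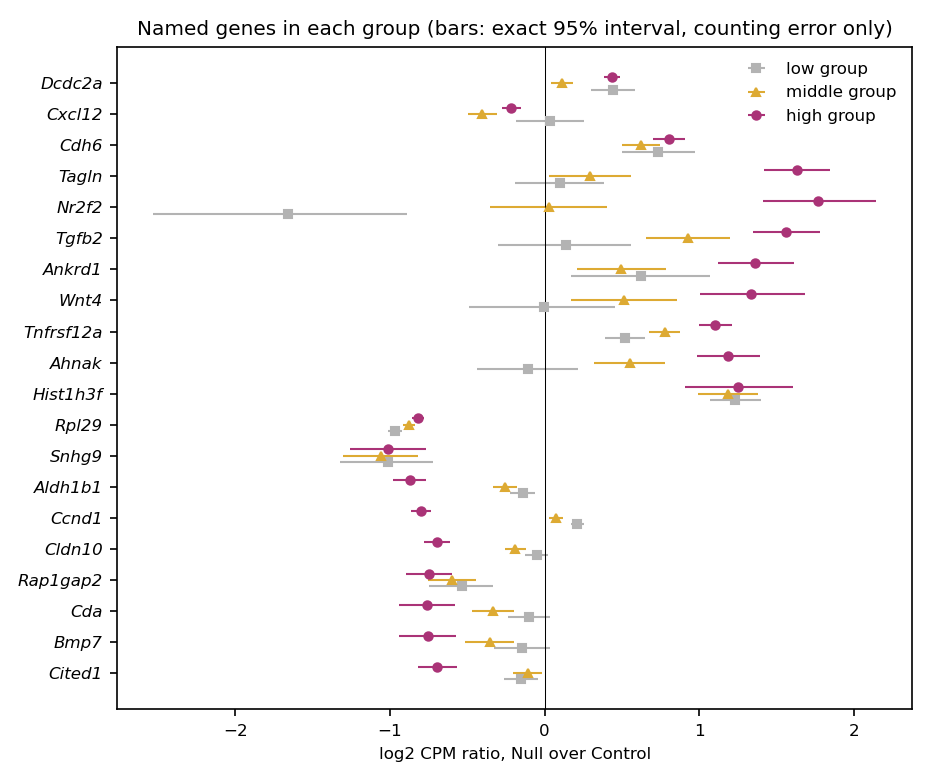
Log2 CPM ratio of Null over Control (horizontal axis) of the 3 ranking genes and of named genes (rows) in the low, middle and high group, with exact 95% intervals for counting error. Sex-linked genes, Onecut2 and Gm42418 are left out, and Tagln (1.63 in the high group, 0.10 in the low) and Ccnd1 (-0.80 and 0.21) separate by group while Rpl29 (-0.82 and -0.97) does not.

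Gene groups are counted beside the 59.4% of all measured genes that were higher and the 40.6% that were lower in Null members. All 15 measured targets and components of YAP/TEAD signalling, a pathway that senses cell shape and tension, were higher, with a median of 0.41 (0.30 among lower-scoring members). Beside Ankrd1 they included Ajuba at 0.57, the co-activator gene Wwtr1 at 0.55 and F3, tissue factor, at 0.61. In the middle group 13 of 15 and in the low group 14 of 15 were higher (medians 0.18 and 0.21), beside 55.7% and 53.4% of all genes. Of 24 keratin and duct surface genes, 20 were higher (median 0.30, and 0.19 among lower-scoring members). Krt19 stood at 130 CPM in Control and 207 CPM in Null (0.67), Krt7 at 193 and 263 CPM (0.44), and the claudin gene Cldn4 at 51.9 and 86.8 CPM (0.74). Of 30 cilium and cystic disease genes, 23 were higher, with a median of 0.19 that was 0.06 among lower-scoring members and 0.35 with groups cut within each library. Pkhd1 had 0.52 and Bicc1 0.42. Cftr had 13 UMIs in Control and 71 in Null members (1.25, 0.39 to 2.23). The epithelial integrin gene Itgb6 had 0.95.

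FGF/ERK feedback and target genes were mostly lower in Null members, 13 of 16, with a median of -0.23. The median depended on the cells and genes taken. It was -0.01 among lower-scoring members, -0.04 over genes of at least 100 UMIs, -0.12 within cells with Y-linked UMIs, -0.13 after subtraction of estimated free RNA and -0.15 over genes of at least 1 UMI. It was -0.35 both with groups cut within each library and with ranking after thinning, and -0.40 without cells with an Onecut2 UMI. Among the lower genes were Spred2, an inhibitor of the pathway, at 13.96 CPM in Control and 7.823 CPM in Null (-0.84), Etv5 at 2.94 and 1.65 CPM (-0.84, -1.59 to -0.07) and Etv1 at -0.94. The early feedback inhibitors Spry1, Spry2 and Dusp6 had ratios of -0.02, -0.03 and -0.04. In the middle and low groups the medians of the list were 0.11 and 0.06, and the difference between the groups was not tested. Trunk transcription factors lay on both sides (18 of 30 higher, median 0.11, and 0.03 among lower-scoring members), with Sox9 at -0.01, Onecut1 at 0.28 and Pdx1 at -0.15. Notch pathway genes did so too (13 of 21 higher, 0.05), and the Notch target Hes1 stood at 868 CPM in Control and 683 CPM in Null (-0.35), with -0.45 and -0.42 in the middle and low groups.

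Acinar and endocrine genes were lower in Null members. The gate allowed at most 1 UMI of Rbpjl and Ptf1a, and of Neurog3, at any depth. Null members had a median of 25502 UMIs against 17072 in Control, so relative to depth these limits were stricter in Null. Their part in the ratios of acinar and endocrine genes was not tested. Of 20 acinar enzyme genes, 17 were lower (median -0.65), for example Pnliprp1, a lipase-related protein, at 385 and 215 CPM, and Prss2, a trypsinogen, at 25.4 and 8.83 CPM. The medians in the middle and low groups were -0.47 and -0.56. Of 27 endocrine commitment genes, 23 were lower (-0.68), among them the granin gene Chgb at 99.0 and 54.1 CPM, and the median was -0.12 after subtraction of estimated free RNA. It was -0.29 among lower-scoring members and -1.05 both with the top and bottom 25% and with groups cut within each library. The upper limits of free RNA in the members, 14.5% in Control and 5.31% in Null, are computed from the members' own acinar enzyme RNA and so move with the acinar genes by construction. The part of free RNA was not tested beyond this subtraction. The free RNA profile rests on 244 Control and 6282 Null barcodes of under 1000 UMIs. Whether these include cells of low RNA content was not tested, and the limits and subtracted values hold only if they do not. Division genes differed little. Of 35 S phase genes 31 were lower (median -0.15) and of 36 G2/M genes 32 were higher (0.17), with medians of -0.08 and 0.32 among lower-scoring members. The G2/M median was -0.27 when groups were cut within each library and -0.02 when cells were ranked after thinning. Of 23 immediate early and dissociation response genes 20 were higher (0.28), and the median was 0.01 with groups cut within each library. The remaining lists had medians between -0.09 (tip and acinar transcription factors) and 0.41 (receptors for Cxcl12 and osteopontin, 0.16 among lower-scoring members).

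**Figure D5:**
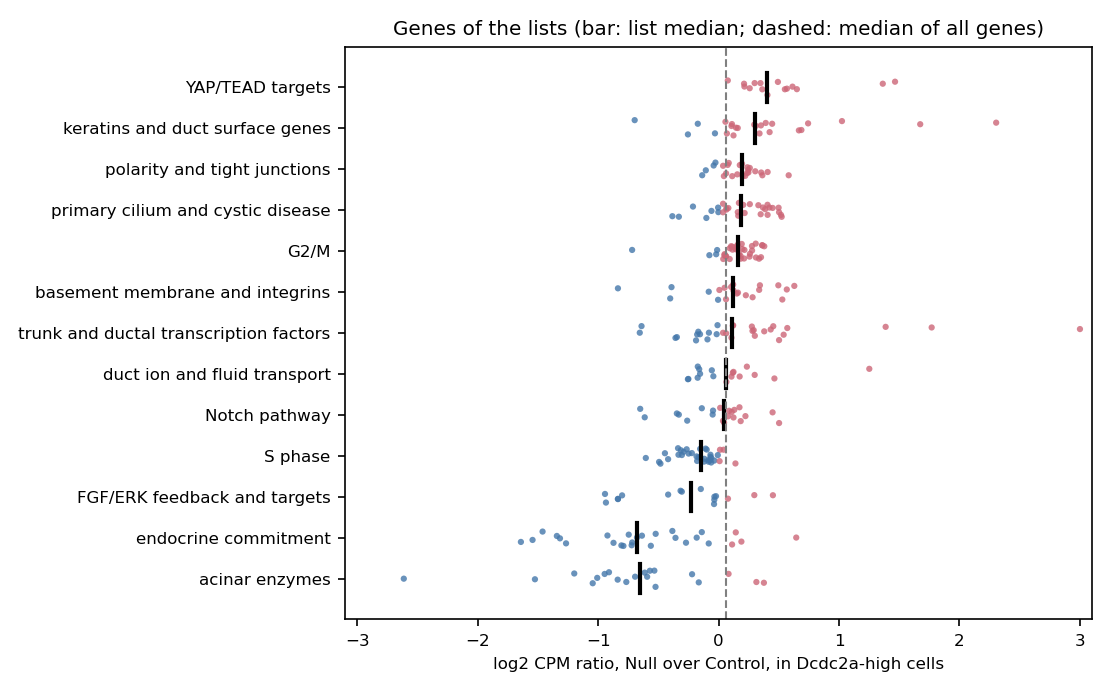
Log2 CPM ratio of Null over Control in Dcdc2a-high cells (horizontal axis) for the measured genes of 13 lists (rows), red where higher and blue where lower in Null, with the list median as a bar and the median of all genes (0.06) as a dashed line. The YAP/TEAD median lies at 0.41 and those of acinar enzymes and endocrine commitment at -0.65 and -0.68, and 1 point beyond 3 (Onecut2) is drawn at the edge.

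The ranking genes are given last, as the rule used them. In members, Dcdc2a was higher in Null by a log2 ratio of 0.44 and Cdh6 by 0.81, and Cxcl12 was lower (-0.22). Among lower-scoring members the values were 0.15, 0.57 and -0.48. With groups cut within each library, so that each library gave the same share of its cells, they were 0.95, 1.24 and 0.33. The sign for Cxcl12 thus turned with the way the members were cut. Spp1 had 0.12, 0.02 among lower-scoring members, and -0.002 after subtraction of estimated free RNA.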

How the data were processed

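The deposited matrices hold raw UMI counts by gene and barcode, and per the file headers the authors made them with Cell Ranger 6.1.1, with no scaling. The submitters' processing notes also name bcl2fastq, Seurat 3.2.3 and the mm10 build. No label or header says whether counting used strand, so how reads of overlapping and antisense genes (Xist and Tsix) were assigned is not stated. Total UMIs were 339959625 in Control and 271129120 in Null. Barcodes of at least 5000 UMIs and under 10% mitochondrial UMIs numbered 13619 and 7608, with medians of 18254 and 28992 UMIs, and 26 barcodes were shared between the libraries.

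UMIs were summed per library and group with Python 3.11.15, numpy 2.4.6, scipy 1.17.1 and pandas 2.3.3. CPM were taken over the total without haemoglobin and mitochondrially encoded genes. Log2 ratios of CPM cover genes with at least 20 UMIs over the sums compared and carry the exact conditional 95% Poisson interval, and shares carry exact Clopper-Pearson intervals. For the ratio, though not its interval, a gene without UMIs in a compared sum was set to 3 UMIs there. The interval code was tested on simulated data. Doublets were called with Scrublet in scanpy 1.11.5 on the kept barcodes, which marked 1282 Control (9.41%) and 309 Null barcodes (4.06%), and were not removed. Free RNA was estimated from barcodes under 1000 UMIs, scaled by acinar enzyme genes. Coordinates came from GENCODE vM21, in which 99.6% of 32285 features had their identifier.

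The members, the 27 gene lists and 13 marker lists (2 symbols unmatched) and the alternatives were chosen with earlier results of these data known, and some lists share genes. Named genes between genotypes had at least 100 UMIs, 20 CPM or more in the library where they were higher, a CPM of at least 50% of that over all kept barcodes and an interval excluding 0, and were ranked by the bound nearest 0, 12 in each direction. Named genes between groups had at least 100 UMIs and 20 CPM in the higher group of each library and were ranked by the smaller ratio, 15 higher and 12 lower. List members may be named beside their list. Genes most like the score were the first 10 by the smaller Spearman's rho.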

Additional observations from a re-analysis of the deposited data

Results flagged for a closer look

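Of 13437 genes measured in both libraries, 7 had a high over low group ratio of at least 2-fold in opposite directions in Control and Null. Each of the 7 had at least 50 UMIs in the cells compared in each library and intervals excluding 0. Without these 2 limits, 2.73% of genes were at least 2-fold higher in both libraries and 1.12% lower in both. The number of genes that reached 50 UMIs is not given, and the difference between the libraries was not tested. The peptide hormone gene Pyy had log2 ratios of -1.51 in Control and 1.15 in Null, on 837 and 3439 UMIs in the members, and the related hormone gene Ppy had -1.57 and 3.91. Anxa1, a phospholipid-binding annexin, had -1.22 and 3.41. The chemokine genes Ccl20 and Cxcl2 had -2.01 and 2.05, and -4.56 and 1.49. Cd74, the invariant chain of antigen presentation, had -3.9996 and 2.21. Dbpht2 had -2.18 and 1.68. Apart from Pyy these rest on few UMIs, for example 4 of Cd74 in Control members and 4 in the Null low group. Summed immune markers stood at 8.72 CPM in Control members and 76.0 CPM in the Control low group, and at 7.97 and 70.0 CPM in Null, and their part in these ratios was not tested.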

How the results depend on the processing

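The alternatives of a UMI minimum of 10000, removal of called doublets, the mean over cells, CPM over all UMIs and centring on the median of all genes moved no share or list median beyond its error and no count of genes by over 1.5 times. Shares of Dcdc2a-high cells in Control and Null were 14.1% and 42.7% when the cut was narrowed to the top 25% and bottom 25%, 33.32% and 33.31% by construction for groups cut within each library, and 26.1% and 45.1% for ranking after thinning; Null had 55.4% for ranking without Cxcl12. For Null over Control medians, groups within each library gave 0.41 for keratins, -0.27 for G2/M and 0.011 for immediate early genes. Ranking after thinning gave -0.017 for G2/M and 0.10 for immediate early genes, and ranking without Cxcl12 gave 0.024 for G2/M. Cxcl12 itself turned to 0.33, 0.062 and 0.12 under these 3 rankings. Sums of thinned cells gave 0.33 for Wnt genes, and free RNA subtraction gave -0.12 for endocrine commitment, -0.0023 for Spp1 and 0.063 for Gm42418.

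Counts of genes past 2-fold, Null over Control, were 605 higher with free RNA subtracted and 103 lower in thinned sums. With a minimum of 100 UMIs they were 106 higher and 47 lower, on a smaller set of genes. With a minimum of 1 UMI they were 849 and 3445. A gene without UMIs in a compared sum was set to 3 UMIs there, which can exceed its count in the other sum. It can then fall on the wrong side, so no count with a minimum of 1 UMI, here or below, measures how many genes differ. High over low, thinned sums gave 353 lower genes in Control and 177 in Null, and ranking after thinning gave 578 higher in Null. A minimum of 100 UMIs gave 209 higher and 168 lower in Control and 542 and 106 in Null, and 1 UMI gave 3655 and 1080 in Control and 3790 lower in Null.

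Chosen after seeing the data were 3 alternatives. Without cells with an Onecut2 UMI, Nr2f2 was -0.57. In cells with Y-linked UMIs only, the Control share was 17.4%, the growth factor median 0.083, Eif2s3y -0.069 and Kdm5d -0.027, and 291 genes were at least 2-fold lower, high over low, in Control. Members under the median score were 13.9% of all Control and 21.1% of all Null gated cells, with 243 genes higher and 132 lower, medians of 0.19 for keratins and 0.32 for G2/M, and in Null 655 genes higher and 190 lower than the low group. Where no construction is named, the cause was not tested. No paired analysis was possible because each genotype is 1 library. Up to 83 single-gene ratios were followed under each setting. Those beyond their interval but in the same direction numbered 35 with the 25% cuts and 37 with groups cut within each library. With ranking after thinning they numbered 56, and only 26 ratios stayed within their interval. Without Cxcl12 they numbered 49, and 33 stayed within. Such ratios numbered 47 among members under the median score, 34 in thinned sums and 28 with free RNA subtracted. In cells with Y-linked UMIs they numbered 13, and under each other setting fewer. Genes with under 20 UMIs over the sums compared were not measured.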

Other observations

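Growth factor genes stood on both sides of the low group, again as a description of cells chosen by the same counts. Of 18 measured in the list, 12 were higher in Dcdc2a-high cells in each library, beside 64.2% of all genes in Control and 67.9% in Null, with ratios from -4.52 to 2.08 in Control and from -0.94 to 3.05 in Null. Of the semaphorins, ephrins and slits 17 of 26 were higher in Control and 21 of 25 in Null. The genes that follow were chosen after their values were seen. Those given with ratios in this paragraph all stood higher, while 6 of the 18 growth factor genes stood lower in each library and are not named. The vessel growth factor gene Vegfa stood at 130 CPM in Control members against 54.3 CPM in the low group and at 169 against 65.4 CPM in Null (log2 ratios of 1.26 and 1.37). Pdgfb had 2.08 and 2.27 and Pdgfa 0.69 and 0.91, and the guidance ligand gene Sema3c had 1.24 and 1.73. The growth factor homologue Fgf12, which stays inside the cell, had 2.37 and 2.53 on 79 and 199 member UMIs. Receptors for the ranking gene Cxcl12 were sparse in the members. Cxcr4 had 36 UMIs in Control (3.78 CPM) and 47 in Null (2.15 CPM), and Ackr3 had 5 and 18.

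The inhibitor of differentiation genes did not share a direction. Id1 and Id3 stood lower in members than in the low group (-0.54 and -1.03 in Control, -0.65 and -1.18 in Null), while Id4 stood higher (0.99 and 1.42). Between genotypes Id1 was at 74.7 CPM in Control and 42.6 CPM in Null members (-0.81, -0.95 to -0.67), with -0.33 in the middle and -0.71 in the low group.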
